A study of Mus musculus with 22 samples.

Results

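The genes lying beside Banp on mouse chromosome 8 were followed in Tol and WT mice, to see whether the lower Banp of Tol thymus was shared by its neighbourhood. They are the protein-coding genes that lie within positions 121000000 to 123200000 of chromosome 8 (GRCm38), without Banp itself and genes of ribosomal proteins. By this rule 34 of the 34585 entries of the count tables were members. The interval was chosen by the Tol and WT thymus values of Banp, so the thymus values of the members are a description with no p-value: counts of calls there stand beside the share over all genes, and nothing is read from them. The RNA came from the thymus, the cerebrum and the cerebellum of C57BL/6 mice. Tol mice are heterozygous for a transgene under the CAG promoter, which was placed 3′ of Col1a1 in embryonic stem cells and codes for a fusion of several reporter proteins, and WT mice are littermates without it. There were 4 Tol and 4 WT libraries of thymus, 4 and 4 of cerebrum, and 2 and 4 of cerebellum. Each library is from bulk tissue, in which fewer cells of a type and less RNA per cell cannot be told apart.

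Banp codes for a nuclear matrix protein, also known as a BTG3-associated protein, that binds DNA at an element with CGCG in its centre and is known as a regulator of genes with CpG-rich promoters. Genes that lie next to each other on a chromosome can share enhancers or a chromatin domain, and a change of the DNA or of chromatin can lower several neighbours at once. Most members have no known relation to each other. They include a transporter of large amino acids (Slc7a5), a cofactor of GATA factors (Zfpm1), a corepressor of blood and brain (Cbfa2t3), a replication licensing factor (Cdt1), a subunit of the phagocyte NADPH oxidase (Cyba), a mechanosensitive ion channel (Piezo1) and a junction protein of excitable cells (Jph3).

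The Banp gene body runs from 121949750 to 122029258 on the plus strand. On the side of lower coordinates lie 12 members, from Foxf1 at 121084386 to Car5a, which ends 4846 bases before Banp, and 22 lie on the other side, from Zfpm1, 252883 bases after Banp, to Sult5a1, which ends at 123158315. The next protein-coding genes are Irf8, before the interval, and Dpep1, which runs across its end (123186242 to 123201812). Promoters are given for the members that flank Banp and for Cbfa2t3, whose Tol libraries were lower than every WT library in both thymus and cerebrum. In cerebellum the Tol and WT libraries of Cbfa2t3 overlapped. The share of all genes lower in both thymus and cerebrum was not counted. The promoters are RefSeq sequences of GRCm38.p6, each 250 bases before to 50 after an annotated start, with CGCG in capitals. Slc7a5 had no entry in the table.
Car5a (chr8:121944863-121945162, minus strand): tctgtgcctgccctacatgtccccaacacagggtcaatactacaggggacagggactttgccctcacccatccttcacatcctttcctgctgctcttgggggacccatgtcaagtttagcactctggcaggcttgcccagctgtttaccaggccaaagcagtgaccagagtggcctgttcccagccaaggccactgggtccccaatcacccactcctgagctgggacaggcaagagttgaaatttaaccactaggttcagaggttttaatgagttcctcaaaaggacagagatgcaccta
Zfpm1 (chr8:122281891-122282190, plus strand): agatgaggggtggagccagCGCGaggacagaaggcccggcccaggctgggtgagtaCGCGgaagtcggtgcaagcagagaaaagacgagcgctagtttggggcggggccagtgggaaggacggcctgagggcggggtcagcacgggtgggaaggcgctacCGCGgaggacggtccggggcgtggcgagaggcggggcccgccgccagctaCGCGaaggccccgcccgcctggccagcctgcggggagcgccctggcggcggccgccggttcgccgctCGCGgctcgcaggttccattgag
Cbfa2t3 upstream start (chr8:122699060-122699359, minus strand): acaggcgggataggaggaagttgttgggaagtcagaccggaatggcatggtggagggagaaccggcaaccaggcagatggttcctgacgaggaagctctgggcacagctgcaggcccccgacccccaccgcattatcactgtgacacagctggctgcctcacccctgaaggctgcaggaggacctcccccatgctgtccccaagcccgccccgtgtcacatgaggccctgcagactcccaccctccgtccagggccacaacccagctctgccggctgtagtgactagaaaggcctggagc
Cbfa2t3 downstream start (chr8:122678126-122678425, minus strand): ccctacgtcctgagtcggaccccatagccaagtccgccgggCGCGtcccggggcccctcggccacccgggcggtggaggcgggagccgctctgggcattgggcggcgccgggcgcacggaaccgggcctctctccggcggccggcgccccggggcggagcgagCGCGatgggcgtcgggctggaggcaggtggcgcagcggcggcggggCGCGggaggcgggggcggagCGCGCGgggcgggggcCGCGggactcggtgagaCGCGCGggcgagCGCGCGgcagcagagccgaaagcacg

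The CGCG core stands in the Zfpm1 promoter and in that of the downstream start of Cbfa2t3, but not in the promoter of Car5a or of the upstream start of Cbfa2t3. Of the 34 members, 26 had a promoter in the table, with 30 starts in all. CGCG was found in 20 of these 30 promoters (66.7%), against 12495 of the 32851 promoters of the table (38%). The members' promoters also held more CpG, with a median of 29 per promoter against 7 over all. The longer motif TCTCGCGAGA, which reads the same on both strands and contains the core, was in 0 of the 30 and in 153 of all promoters (0.466%). These matches are a description of letters in the windows.

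Library totals ranged from 14543698 to 34776973 counts over the 22 libraries. Levels are given in CPM, counts scaled to the library total and by the TMM factors of the libraries compared. Thymocyte markers summed to between 7396 and 9520 CPM in Tol thymus and between 9340 and 10540 CPM in WT thymus, with 3 of 4 Tol libraries below every WT library. Forebrain neuron markers summed to between 1224 and 1603 CPM in cerebrum. The library labelled cerebellum Tol 2 stood apart. Its cerebellar neuron markers summed to 144 CPM, against 1588 to 4148 CPM in the other cerebellum libraries, with Gabra6 of granule cells at 12.7 CPM against 321 to 772 CPM. Its forebrain neuron markers were also low, at 22.9 CPM against 257 to 547 CPM. All cerebellum libraries stood in the same order for both lists, so the forebrain list gives no separate reading there. WT cerebellum 2 was the lowest of the others for both lists. Cerebellum results are therefore given with and without Tol 2. In thymus, the library Tol 1 was nearer to WT than the other Tol libraries for several members, as given beside their values. Tol 1 also had the highest cycling cell markers (2875 CPM, against 1899 to 2148 CPM in the other Tol thymi and 1844 to 2566 CPM in WT) and the lowest myeloid markers (317 CPM, against 421 to 494 CPM and 365 to 417 CPM). The part of cell composition in the thymus values was not tested.

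In thymus no fitted member had a log2 fold change as low as that of Banp, which is given as a description. Banp read 24.5, 21.1, 32.1 and 20.2 CPM in the 4 Tol thymi and 59.8, 53.6, 46.3 and 53.8 CPM in the 4 WT thymi, a log2 fold change of -1.12 (SE 0.13). The groups did not overlap, and this is the difference that drew the interval. Of the members, 24 had enough counts to be fitted. Their log2 fold changes ran from -0.41 for Cbfa2t3 to 0.44 for Galns, and 0 of 24 were as low as Banp or at -1 or lower, where 0.788% of all genes lay. The median was 0.11, against 0.01 over all 16248 genes fitted. Below 0 lay 8 members and above 0 lay 16, so 33.3% were lower in Tol, against 48.6% of all genes.

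**Figure D1:**
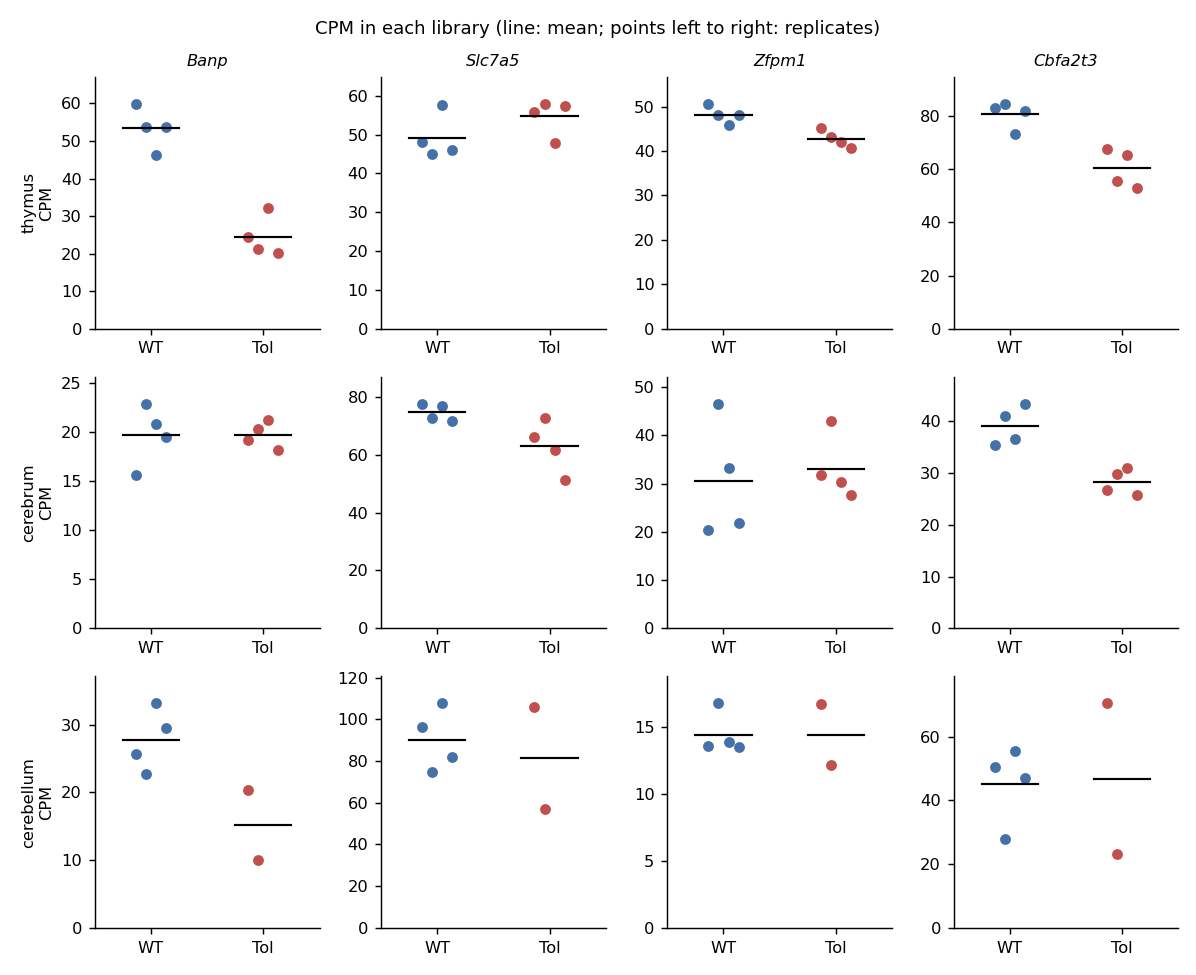
CPM of Banp and of Slc7a5, Zfpm1 and Cbfa2t3 in each library, with WT in blue, Tol in red and the mean as a line; rows are thymus, cerebrum and cerebellum. Banp is lower in every Tol library than in any WT library in thymus and in cerebellum (2 Tol libraries), as is Zfpm1 in thymus. Slc7a5 overlaps in every organ. Cbfa2t3 is lower in every Tol library of thymus and cerebrum and overlaps in cerebellum.

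The thymus values of the members that flank Banp are described next. Car5a, a mitochondrial carbonic anhydrase, is the nearest, but it had only 3 to 14 counts in a thymus library and was not fitted. Slc7a5, which lies 42056 bases before Banp, read 56.0, 57.9, 47.7 and 57.3 CPM in Tol thymus, and 48.1, 45.1, 57.6 and 46.1 CPM in WT. Its groups overlapped, with a log2 fold change of 0.15 (SE 0.09). Zfpm1, the nearest on the other side, read 45.2, 43.1, 42.0 and 40.8 CPM in Tol and 50.5, 48.0, 45.9 and 48.2 CPM in WT. Every Tol library lay below every WT library, but the log2 fold change was -0.17 (SE 0.06), against -1.12 for Banp. Klhdc4, a kelch-domain protein next to Slc7a5, stood at 0.06 (SE 0.09). Within 500000 bases of Banp, 13 members were fitted, with a median log2 fold change of 0.06, and 5 were below 0.

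Cbfa2t3 was the lowest member in thymus. This corepressor, also called ETO2, works with transcription factors of blood cell precursors. It read 67.6, 55.6, 65.5 and 53.0 CPM in Tol thymus and 83.0, 84.5, 73.1 and 81.9 CPM in the WT thymi, a log2 fold change of -0.41 (SE 0.08). The groups did not overlap. Between Cbfa2t3 and Banp lie 595883 bases and 15 other members, among which Trappc2l, 2 genes away from Cbfa2t3, was at 0.39 (SE 0.12) and Galns at 0.44 (SE 0.11). Over the 24 members, Spearman's rho with the distance from Banp was 0.20 for the log2 fold change and 0.36 for its absolute size.

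Members without overlap between Tol and WT thymus were 5 of 24 (20.8%), against 11.8% of all genes. Higher in Tol were 3 (5.81% of all genes were), Galns, a lysosomal sulfatase, Spg7, a mitochondrial protease, and Mthfsd. Lower were 2 (5.95% of all genes were), Cbfa2t3 and Zfpm1. Galns read 16.6, 19.6, 15.6 and 20.1 CPM in Tol and 13.9, 11.8, 14.9 and 12.6 CPM in WT. Spg7 read 61.0, 67.5, 63.1 and 65.8 CPM in Tol and 58.3, 52.2, 57.4 and 59.9 CPM in WT, with a log2 fold change of 0.17 (SE 0.06). By edgeR's quasi-likelihood test at an adjusted p of 0.05, 0 of the 24 members were called, against 0.0985% of all genes. Since the thymus contrast chose the interval, nothing is read from these counts.

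**Figure D2:**
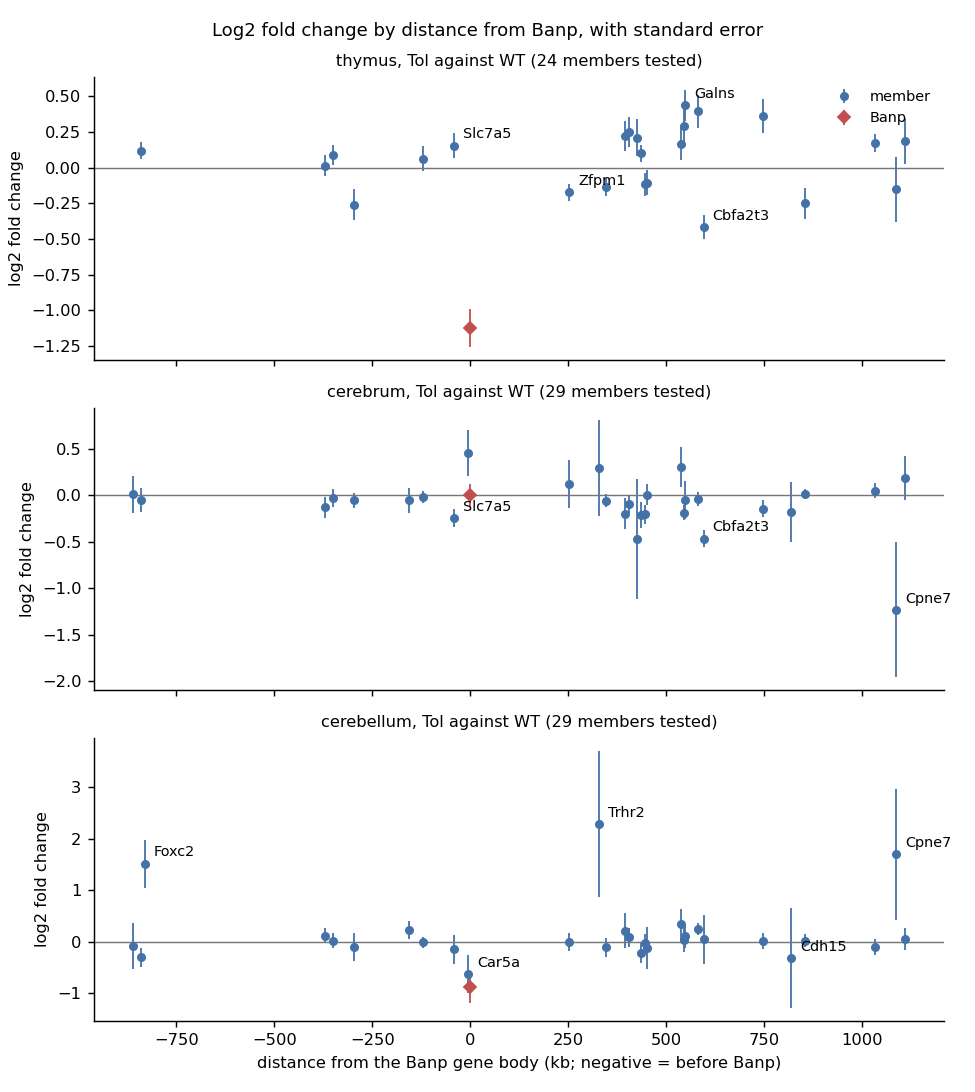
Log2 fold change of Tol against WT (vertical axis) by distance from the Banp gene body in kb (horizontal axis), for thymus, cerebrum and cerebellum, with bars of 1 standard error; the vertical scale differs between panels. Banp (red diamond) is at -1.12 in thymus, where the 24 members (blue) lie between -0.41 and 0.44.

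The number of called members in thymus, like the share of all genes, rose most when Tol thymus 1 was left out. Without it, 10 of 25 members were called, 5 higher and 5 lower, against 18.2% of all genes. Piezo1 stood apart in this library, at 78.8 CPM in Tol 1 and 59.0 to 61.2 CPM in the other Tol thymi, with WT thymi at 69.3 to 70.8 CPM. Ankrd11, a large chromatin regulator, was at 406 CPM in Tol 1 and 280 to 307 CPM in the other Tol thymi, against 349 to 417 CPM in WT. Cyba was at 81.0 CPM in Tol 1 and 105 to 116 CPM in the others, against 83.0 to 94.1 CPM in WT. All 3 were on the WT side in Tol 1 or beyond it.

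Thymus values of the members followed the length of the gene. Spearman's rho between the log2 fold change and the annotated exonic length was -0.71 over the 24 members, against -0.34 over 16199 genes with a length. Among members with short exons, Trappc2l (1950 bases), which works in vesicle tethering, was at 0.39, Aprt (1615 bases), an enzyme of adenine salvage, at 0.29 (SE 0.14), and Cyba (1039 bases) at 0.22 (SE 0.10). Among those with long exons, Ankrd11 (16580 bases) was at -0.25 (SE 0.11), Zcchc14 (7780 bases) at -0.26 (SE 0.11) and Zc3h18 (9190 bases), a nuclear RNA-processing protein, at -0.13 (SE 0.06). Mthfsd (10586 bases) was long and at 0.12 (SE 0.06). With each library's trend by length removed, rho over the members was -0.32 and their median 0.05. Cyba was then at 0.034, Zc3h18 at -0.046, Mthfsd at 0.23, Aprt at 0.14 and Ankrd11 at -0.11. Cbfa2t3 was then among the 0.609% of genes called. In cerebrum, rho with length was -0.04 over 29 members. The part of length in these values was not tested.

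**Figure D3:**
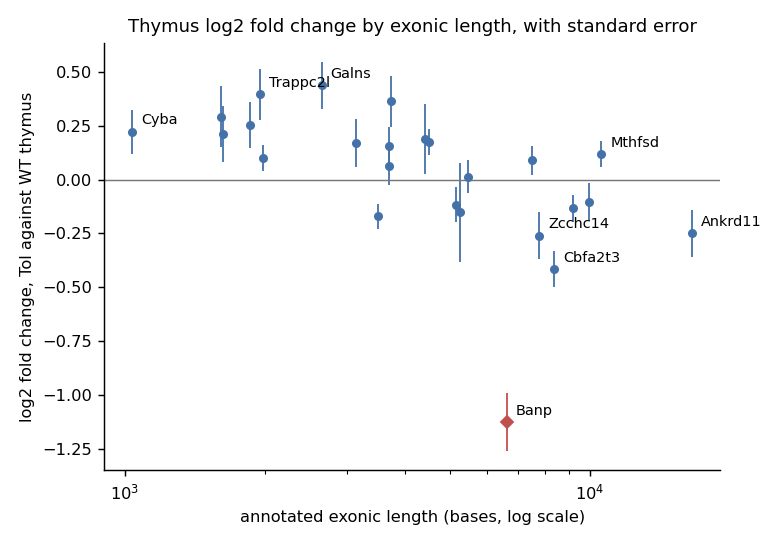
Log2 fold change of Tol against WT thymus (vertical axis, bars of 1 standard error) by annotated exonic length in bases (horizontal log axis), for the 24 members (blue) and Banp (red). Short members such as Cyba, Trappc2l and Galns lie above 0 and long ones such as Ankrd11 and Zcchc14 below it. Banp, with 6632 bases, lies at -1.12, the difference by which the interval was chosen.

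By role, the 5 fitted members of transcription and chromatin had a median log2 fold change of -0.17 in thymus, from -0.41 for Cbfa2t3 to 0.21 for Snai3, a repressor of the Snail family. Members of immune and blood cells, 4 in number, ran from -0.41 to 0.22, the highest being Cyba. Those of autophagy, membrane traffic and protein turnover ran from 0.01 for Fbxo31, an adaptor of a ubiquitin ligase, to 0.39 for Trappc2l over 5 members, with Map1lc3b, the LC3B of autophagosomes, at 0.09 (SE 0.07). Metabolism and transport ran from -0.12 for Ctu2, which thiolates tRNA, to 0.44 for Galns over 6 members, with Mvd of the mevalonate pathway at 0.25 (SE 0.11). Cdt1, the only member of replication and repair, was at 0.17 (SE 0.11), and Acsf3, a mitochondrial ligase, at 0.36 (SE 0.12). At the ends of the interval, Sult5a1 just inside was at 0.19 (SE 0.16) and Irf8 just outside at -0.16 (SE 0.06). Dpep1, which runs across the upper end, was at -0.51 (SE 0.34), from 33 to 104 counts. Foxf1, just inside, had 1 to 9 counts.

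In cerebrum, where the interval was not chosen, Banp and its neighbours showed no called difference. Banp read 19.2, 20.3, 21.2 and 18.2 CPM in Tol and 15.7, 22.9, 20.9 and 19.5 CPM in WT, a log2 fold change of 0.00 (SE 0.12, 95% interval -0.22 to 0.23, edgeR adjusted p = 0.996). Of 29 members tested, 0 were called higher and 0 lower with edgeR's test, against 0% of 15596 genes. At an unadjusted p under 0.05 there were 3 members, and 9.66% of all genes. DESeq2 called 1 member, Cbfa2t3, and 0.746% of all genes. The median log2 fold change was -0.05, against -0.00 over all genes, with 20 members lower and 9 higher, where 51.4% of all genes were lower.

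Cbfa2t3, named because its groups did not overlap in thymus and cerebrum, is described next for cerebrum. It read 26.6, 29.8, 30.9 and 25.7 CPM in Tol cerebrum and 35.4, 41.0, 36.5 and 43.4 CPM in WT cerebrum, a log2 fold change of -0.47 (SE 0.09, edgeR adjusted p = 0.201), lower in 4 of 4 Tol libraries than in any WT library. It was the only one of 29 members without overlap (3.45%), against 6.5% of all genes. Slc7a5 read 66.3, 72.6, 61.6 and 51.4 CPM in Tol and 77.6, 72.6, 76.9 and 71.6 CPM in WT. Its difference of -0.24 (SE 0.10) did not pass the test, with an edgeR adjusted p of 0.456. Car5a, with 7 to 14 counts per library, was at 0.46 (SE 0.25, edgeR adjusted p = 0.657).

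The widest spread in cerebrum was within WT. Cpne7, a copine that binds membranes with calcium, read 102, 17.9, 13.4 and 123 CPM in WT and 28.0, 10.9, 49.0 and 20.5 CPM in Tol, so that its log2 fold change of -1.23 (SE 0.73, edgeR adjusted p = 0.628) rests on WT 1 and WT 4. Zfpm1 ran the other way in the same libraries, with 20.4, 46.5, 33.2 and 21.9 CPM in WT, and Trhr2, a receptor for thyrotropin-releasing hormone, with 0.564, 2.54, 3.24 and 0.837 CPM. WT 1 and WT 4 were high for Cpne7 and low for both of these. The summed forebrain markers were 1482 and 1484 CPM in WT 1 and WT 4, and 1471 and 1224 CPM in WT 2 and WT 3. Snai3, at 4 to 22 counts, was at -0.47 (SE 0.65, edgeR adjusted p = 0.864).

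Cerebellum gave 29 tested members from 2 Tol and 4 WT libraries, and again 0 were called higher or lower by edgeR, against 0% of 16662 genes. At an unadjusted p under 0.05 there was 1 member, and 3.16% of all genes, and DESeq2 called 0 members and 0.0364% of all genes. The median log2 fold change was 0.02, against 0.01 over all genes. Without Tol 2, which leaves 1 Tol library assumed to vary like the WT libraries, it was 0.10 and 0 members were called. Banp read 20.3 and 10.1 CPM in Tol and 25.7, 22.7, 33.1 and 29.5 CPM in WT, so both Tol libraries were lower than every WT library. The log2 fold change was -0.87 (SE 0.31, edgeR adjusted p = 0.957). It was -0.46 without Tol 2 (adjusted p = 0.979) and -1.47 without Tol 1 (adjusted p = 0.0875).

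Of the neighbours in cerebellum, Car5a was lower than WT in both Tol libraries, while Slc7a5 and Zfpm1 overlapped. Slc7a5 read 106 and 57.2 CPM in Tol and 96.4, 74.8, 108 and 81.9 CPM in WT, with Tol 1 among the WT values and Tol 2 below them. Its log2 fold change was -0.15 (SE 0.27, edgeR adjusted p = 0.958), or 0.22 without Tol 2. Zfpm1 stood at 16.7 and 12.2 CPM in Tol and 13.6, 16.8, 13.9 and 13.5 CPM in WT, a log2 fold change of 0.00 (SE 0.18, edgeR adjusted p = 0.999). Car5a was lower in both Tol libraries, with 0.436 and 0.399 CPM against 0.538 to 0.822 CPM, from 10 to 22 counts per library (log2 fold change -0.63, SE 0.37, edgeR adjusted p = 0.957). Members without overlap were Car5a, Foxc2 and Trappc2l, 3 of 29 (10.3%) against 10.8% of all genes.

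Several cerebellum values changed in sign or size when Tol 2 was left out. Cdh15, the cadherin of muscle that is also made in cerebellum, read 69.1 CPM in Tol 1 and 3.67 CPM in Tol 2, against 48.3, 25.7, 51.1 and 55.5 CPM in WT. Its log2 fold change was -0.31 (SE 0.97, edgeR adjusted p = 0.970) with both Tol libraries and 0.61 without Tol 2. Cbfa2t3 read 70.5 and 23.2 CPM in Tol and 50.3, 27.8, 55.4 and 47.1 CPM in WT, 0.05 (SE 0.47) with both and 0.63 without Tol 2. Both genes were lowest in Tol 2 and next lowest in WT 2, the libraries with the lowest cerebellar neuron markers. Cpne7 had 0.277 and 8.38 CPM in Tol, against 0.224 to 2.31 CPM in WT, and its log2 fold change went from 1.69 (SE 1.27) to -2.25 without Tol 2. Trhr2 likewise went from 2.28 (SE 1.41) to -2.01. Foxc2, a forkhead factor of mesenchyme and vessels, was at 1.43 and 2.27 CPM in Tol, against 0.331 to 0.897 CPM in WT, with 1.51 (SE 0.47, edgeR adjusted p = 0.957) and 1.14 without Tol 2. The part of tissue composition in these values was not tested.

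**Figure D4:**
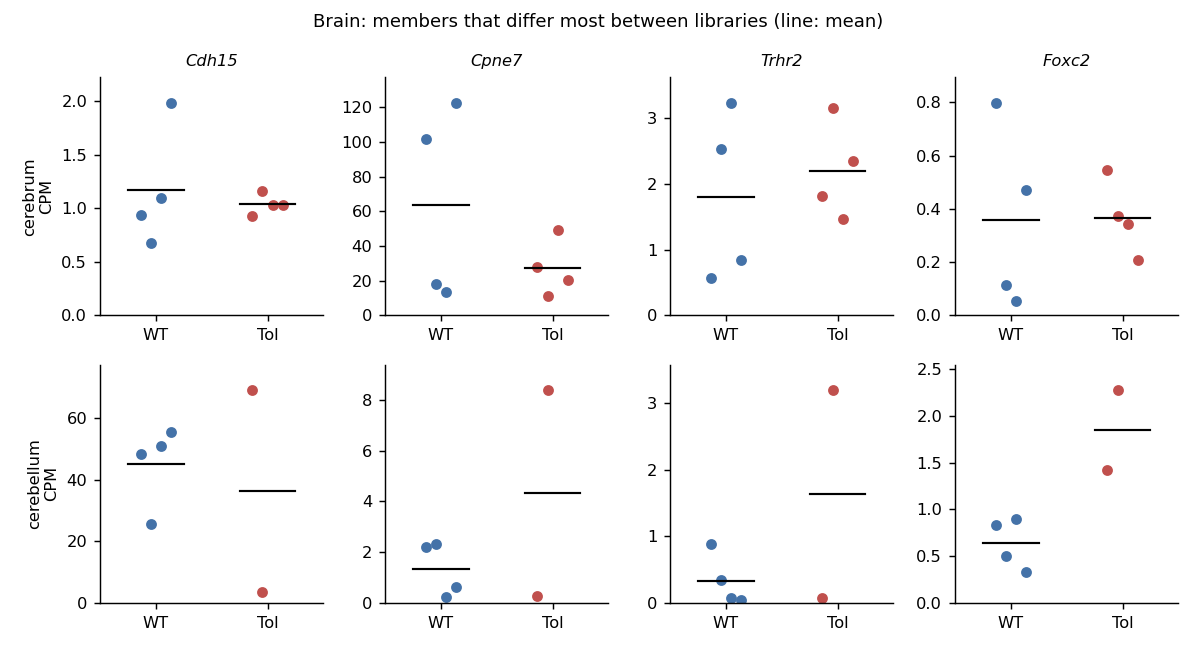
CPM of Cdh15, Cpne7, Trhr2 and Foxc2 in each library of cerebrum (top) and cerebellum (bottom), with WT in blue, Tol in red, replicates from left to right and the mean as a line. Cdh15 is at 69.1 CPM in Tol cerebellum 1 and 3.67 CPM in Tol cerebellum 2, and Cpne7 is above 100 CPM in 2 WT cerebra and below 20 CPM in the other 2.

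Calls between organs were common among the members, as they were among all genes. In WT mice, 26 of 28 members tested (92.9%) differed between thymus and cerebrum with edgeR's test, against 86.5% of all genes, 13 higher in thymus (45.1% of all genes were) and 13 lower (41.4%). Banp itself was higher in thymus, with 51.6, 46.7, 39.6 and 47.3 CPM against 18.1, 26.4, 24.2 and 22.4 CPM (log2 fold change 1.02, SE 0.12, edgeR adjusted p = 2.02e-05). On the Foxf1 side of Banp, 7 of 8 members were lower in thymus, and on the other side 14 of 20 had a positive log2 fold change, where 48.1% of all genes were below 0. Slc7a5 was lower in thymus by a log2 fold change of -1.02 (SE 0.08, adjusted p = 5.22e-07) and Zfpm1 was not called (0.25, SE 0.23, edgeR adjusted p = 0.327), but passed at 0.53 without WT cerebrum 2 (adjusted p = 0.0105).

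Members higher in thymus were led by Cdt1, which loads the helicase onto replication origins, with 61.0, 52.0, 74.0 and 60.0 CPM in thymus and 1.14, 1.63, 1.69 and 1.08 CPM in cerebrum (log2 fold change 5.48, SE 0.17, edgeR adjusted p = 5.19e-10). The cycling cell markers summed to between 1607 and 2194 CPM in WT thymus and 11.3 to 14.2 CPM in WT cerebrum. Cyba followed with 4.66 (SE 0.12, adjusted p = 1.11e-10), then Snai3 with 3.37 (SE 0.42), Piezo1 with 2.66 (SE 0.09) and Ctu2 with 1.60 (SE 0.07). Exons of Ctu2 and Piezo1 lie over each other on opposite strands for 2441 bases, 47.3% of the exonic length of Ctu2, and whether strand was used in the counting is not given in the sources used here, so their reads may not be fully told apart. Of 4 fitted members of immune and blood cells, 3 were higher in thymus and 0 lower, against 45.1% and 41.4% of all genes.

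Among the members lower in thymus were those of excitable cells. Jph3, which holds the plasma membrane near the endoplasmic reticulum, read 232, 323, 333 and 254 CPM in WT cerebrum and 0.264 to 0.495 CPM in WT thymus (log2 fold change -9.57, SE 0.22, edgeR adjusted p = 6.65e-11). All 3 members of the neuron and excitable cell list were lower, as were 41.4% of all genes, with Cpne7 at -5.80 (SE 0.84) and Cdh15 at -2.94 (SE 0.42). Trhr2 was at -6.20 (SE 1.03), from 0 to 2 counts in thymus. Zcchc14 was at -3.21 (SE 0.11) and Fbxo31 at -2.79 (SE 0.09). Per kb of exon, Cyba had the highest level of the members in WT thymus (73.9 CPM per kb, ahead of Rnf166 at 34.3) and Jph3 in WT cerebrum (64.1, ahead of Fbxo31 at 27.4). Banp stood at 6.98 CPM per kb in WT thymus and 3.44 in WT cerebrum.

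Between WT cerebellum and the same WT cerebrum libraries, 10 of 29 members (34.5%) differed, against 49.8% of all genes, 4 higher in cerebellum (25.6% of all genes were) and 6 lower (24.2%). Cdh15 was the highest, with 46.0, 24.6, 48.0 and 53.2 CPM in cerebellum against 0.993, 0.711, 1.15 and 2.09 CPM in cerebrum (log2 fold change 5.11, SE 0.36, edgeR adjusted p = 1.87e-05). Cdt1 was at 1.29 (SE 0.21, adjusted p = 0.00125), Acsf3 at 0.53 (SE 0.12) and Mthfsd at 0.41 (SE 0.11). Cpne7 was the lowest, at -5.73 (SE 0.98, adjusted p = 0.00148), and its 4 cerebrum libraries ran from 14.1 to 129 CPM. Trhr2 was at -2.55 (SE 0.86, adjusted p = 0.0344), a call that was lost without WT cerebellum 2, 3 or 4 or WT cerebrum 2 or 3 (-2.57 to -2.09, adjusted p from 0.0611 to 0.0925). Zfpm1 was at -1.22 (SE 0.25), Fbxo31 at -1.05 (SE 0.10), Jph3 at -0.84 (SE 0.15) and Aprt at -0.52 (SE 0.13). Banp was not called, at 0.35 (SE 0.15, edgeR adjusted p = 0.0785), but passed at 0.42 without WT cerebellum 2 (adjusted p = 0.0383).

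**Figure D5:**
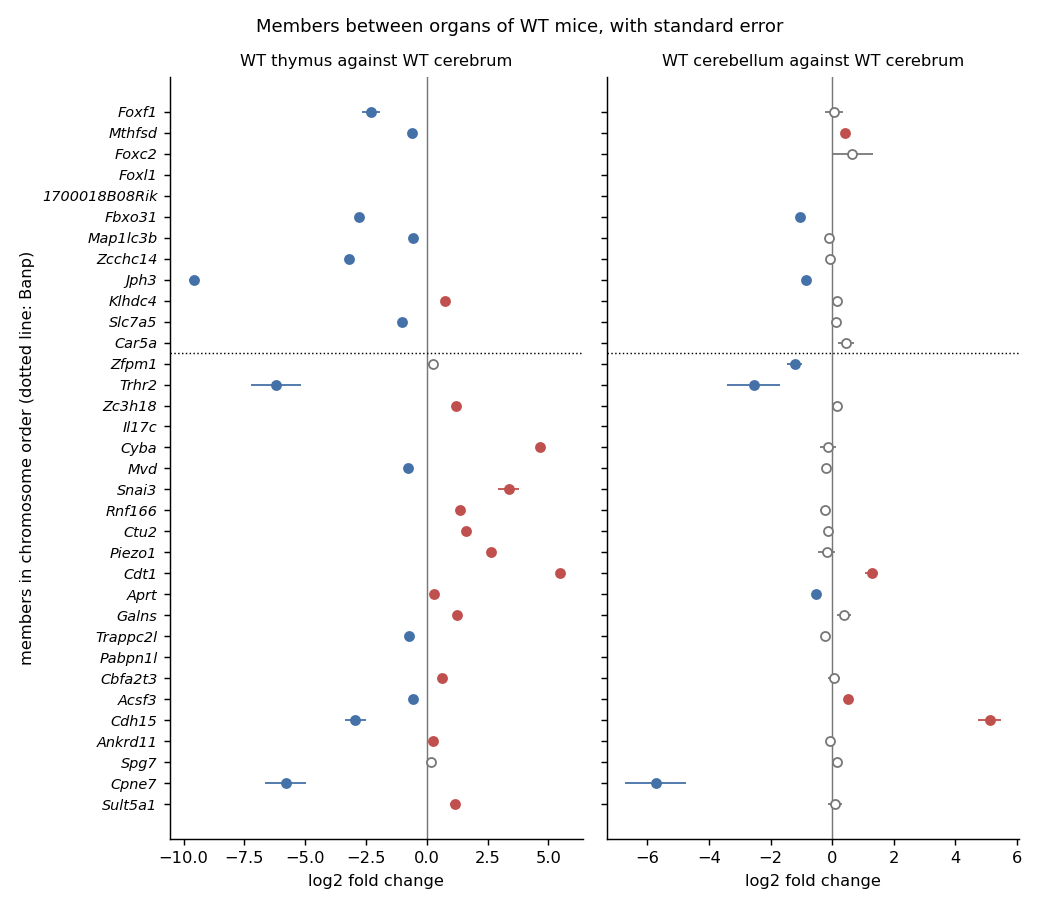
Log2 fold change (horizontal axis, bars of 1 standard error) of the members in chromosome order between WT thymus and WT cerebrum (left) and WT cerebellum and WT cerebrum (right). Red is higher and blue lower with an edgeR adjusted p under 0.05, grey open points did not pass, and members without a point were not tested; Jph3 (-9.57) and Cdt1 (5.48) are the extremes on the left, Cpne7 (-5.73) and Cdh15 (5.11) on the right.

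Some members were too low to compare. In thymus 10 members were not fitted, none with more than 18 counts in a library: Foxf1, Foxc2, Foxl1, 1700018B08Rik, Jph3, Car5a, Trhr2, Il17c, Pabpn1l and Cdh15. In cerebrum and in cerebellum 5 were not, with Foxl1, 1700018B08Rik, Il17c and Pabpn1l in both. Car5a, the nearest neighbour of Banp, is thus a thymus blank, and Slc7a5 and Zfpm1 are the nearest members with a thymus value. The 7 genes whose proteins are known to work with or beside BANP (Btg3, Trp53, Hdac1, Hdac2, Sin3a, Sin3b and Cux1) gave 0 calls in each of the 3 genotype comparisons with edgeR, at log2 fold changes from -0.09 to 0.25 in thymus. In WT thymus against WT cerebrum 6 of the 7 were higher and 0 lower, against 45.1% and 41.4% of all genes.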

How the data were processed

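RNA was sequenced from frozen thymus, cerebrum and cerebellum as stranded, poly(A)-selected libraries. The authors quantified reads with Salmon 0.14.1 on GRCm38 transcripts plus the transgene, per the submitters' processing notes, which also list edgeR 3.9. The deposited values are estimated counts (expected counts) per gene, whole and not normalized; the deposited columns of Tol libraries carry the name MRT. The Ensembl release and the way transcripts were summed to genes are not given in the sources used here, and 0 columns were left unused.

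Genes were placed with GENCODE vM21 (GRCm38), which held 34465 of 34585 identifiers. Each comparison was fitted across all genes with edgeR 4.0.16 in R 4.3.3 (TMM, filterByExpr, quasi-likelihood F test, Benjamini-Hochberg, called at an adjusted p under 0.05), on the libraries of its own 2 groups. Figures and summaries used Python 3.11.15. The fit was tested on simulated data with 200 changed genes. Alternatives were DESeq2 size factors, DESeq2 1.42.0, no low-count filter, a minimum of 10 counts per library, a robust fit, a replicate block, removal of each library's trend with exonic length, a window of 500000 bases and leaving out each library. CPM depend on the total of 14543698 to 34776973 counts per library, and low members carry counting error.

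The members and lists were chosen with earlier results of these data known. The genes named are Banp, the 5 tested members nearest to it on each side, the genes at both ends of the interval, in each comparison the members with the lowest adjusted p or the largest changes, members without overlap in the same direction in 2 or more organs, and up to 4 of each role list by level; Rnf166 per kb and members named only for not being fitted are outside this rule and were chosen after their values were seen. Libraries of the same group always differed by more than sampling noise and were each counted as 1 replicate. The labels give replicate numbers but no animal. The paper states 4 Tol and 4 WT mice for its expression data, so libraries of different organs may come from the same mice. For cerebellum only 2 Tol libraries were given. The main fits did not model shared mice, and p-values measure the spread between these samples.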

Additional observations from a re-analysis of the deposited data

Results flagged for a closer look

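Among 141 groups of 4 libraries of the genes named, 11 held a library far from the other 3 by Dixon's test, where chance gives about 1 in 20, or 7.05 groups. In thymus, Piezo1 was at 78.8 CPM in Tol 1 against 59.0 to 61.2 CPM, and Snai3 at 11.6 CPM in WT 4 against 8.81 to 8.98 CPM. In WT cerebrum, replicate 2 was low for Zcchc14 (74.1 CPM) and Trappc2l (16.2 CPM) and high for Mthfsd (41.1 CPM), and replicate 4 was high for Car5a (0.575 CPM). In Tol cerebrum, replicate 2 was high for Cdt1 (1.77 CPM) and Spg7 (44.8 CPM), and replicate 3 was high for Ankrd11 (251 CPM). In WT cerebellum, replicate 2, which also had the lowest cerebellar neuron markers of the WT libraries, was high for Zfpm1 (16.8 CPM) and Map1lc3b (217 CPM).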

How the results depend on the processing

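Called members were 0 in each genotype comparison. In cerebrum and cerebellum they stayed at 0 under each alternative run, except that DESeq2 called 1 lower in cerebrum (Cbfa2t3, adjusted p = 0.00226). In thymus DESeq2 called 2 higher and 1 lower (4.64% of all genes were called), and 1 lower was called with the length trend removed (0.609%) or without the filter (0.484%). Leaving out 1 library gave 0 to 5 higher and 0 to 5 lower in thymus, the 5 without Tol 1, where 18.2% of all genes were called. The members' median in thymus was 0.052 with the length trend removed, 0.063 within 500000 bases of Banp and 0.061 to 0.13 leaving out 1 library. In cerebellum, leaving out 1 library gave a median of -0.091 to 0.096. Between WT thymus and cerebrum the median was 0.20, and 0.24 with DESeq2, 0.24 with at least 10 counts in each library, 0.26 without the filter and 0.12 to 0.23 leaving out 1 library. Between WT cerebellum and cerebrum it went from -0.063 to 0.0097 without the filter. The causes were not tested. Low counts left 10 members unfitted in thymus and 5 in each brain organ.

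Deviations of same-numbered libraries correlated between -0.298 and 0.339 in cerebrum, between -0.112 and 0.0513 in thymus, and at -0.178 and 0.619 in cerebellum. There, Tol 2 and WT 2 are both the libraries of their genotype with the lowest cerebellar neuron markers. Between organs of WT mice they correlated between -0.00774 and 0.0571 (thymus and cerebrum) and between 0.00329 and 0.111 (cerebellum and cerebrum). Since the labels give no animal, these values cannot decide whether equal numbers mark the same animal or batch. With the replicate block, members called between WT cerebellum and cerebrum were 4 higher and 5 lower, Trhr2 being lost (-2.67, edgeR adjusted p = 0.0731). The share of all genes in that fit was not counted. In each genotype comparison 0 members were called with the block, against 0.0308% of all genes in thymus and 0% in each brain organ.

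Signs that turned belonged to genes that were not called. In cerebellum with the replicate block, log2 fold changes were 0.038 for Klhdc4, 0.028 for Zcchc14, -0.083 for Zfpm1, -0.058 for Irf8, -0.29 for Cpne7, 0.034 for Spg7, -0.075 for Map1lc3b and 0.19 for Ctu2. Zfpm1 and Acsf3 there read -0.0067 and -0.00051 with DESeq2, -0.0079 and -0.00079 with its size factors, -0.020 and -0.012 without the length trend, and -0.016 and -0.011 without the filter, where Map1lc3b read -0.00014. In cerebrum, Banp read -0.0011 with DESeq2, -0.0082 without the length trend and -0.0075 without the filter. There, without the length trend, Klhdc4 read 0.0016, Ankrd11 -0.094 and Piezo1 -0.030, and Piezo1 read -0.0038 without the filter.

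Leaving out 1 library in cerebellum gave Slc7a5 -0.66 to 0.22, Klhdc4 -0.091 to 0.064, Zcchc14 -0.57 to 0.25, Zfpm1 -0.25 to 0.21, Trhr2 -2.01 to 3.24, Zc3h18 -0.36 to 0.10, Mvd -0.24 to 0.34, Foxf1 -0.50 to 0.24, Sult5a1 -0.058 to 0.14, Irf8 -0.46 to 0.89 and Cpne7 -2.25 to 2.64. Likewise it gave Cbfa2t3 -0.97 to 0.63, Cdt1 -0.19 to 0.72, Spg7 -0.30 to 0.070, Acsf3 -0.094 to 0.096, Ankrd11 -0.030 to 0.068, Piezo1 -0.55 to 0.19, Cdh15 -3.62 to 0.61, Map1lc3b -0.017 to 0.093, Fbxo31 -0.11 to 0.30, Rnf166 -0.50 to 0.018 and Ctu2 -0.12 to 0.043. In cerebrum it gave Banp -0.090 to 0.081, Klhdc4 -0.036 to 0.0097, Jph3 -0.14 to 0.029, Zfpm1 -0.030 to 0.40, Trhr2 -0.0082 to 0.75, Foxf1 -0.034 to 0.11, Irf8 -0.011 to 0.23, Spg7 -0.015 to 0.088, Ankrd11 -0.0089 to 0.033, Piezo1 -0.052 to 0.067, Cdh15 -0.36 to 0.19, Map1lc3b -0.090 to 0.037 and Mthfsd -0.15 to 0.056. Between WT cerebellum and cerebrum it gave Zcchc14 -0.17 to 0.036, Cyba -0.30 to 0.018, Foxf1 -0.12 to 0.19, Sult5a1 -0.044 to 0.25 and Cbfa2t3 -0.059 to 0.22.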
